A study of Mus musculus with 6 samples.

Results

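The set described here holds 9 genes of the Hippo pathway: the kinase genes *Lats1* and *Lats2*, and 7 genes grouped with them as negative feedback genes, *Amot*, *Amotl1*, *Amotl2*, *Ptpn14*, *Frmd6*, *Ajuba* and *Nuak2*. Not all of their products restrain YAP and TAZ, as described below for AJUBA and NUAK2. The members are a list of named genes, chosen with earlier results of these data known, and their rows were found by symbol among the 37384 gene symbols of a table of raw read counts, and all 9 passed the filter on low counts that left 15674 genes to be tested. RNA came from the floated adipocyte fraction of inguinal subcutaneous white adipose tissue (scWAT) of male mice at postnatal day 7, in 3 libraries labelled L1L2-FF and 3 labelled L1L2-AKO, each from the pooled fat of 4 mice. Both genotypes carried floxed alleles of *Lats1* and of *Lats2* (Lats1f/f, Lats2f/f), and L1L2-AKO mice also carried Adipoq-Cre, a Cre recombinase driven by the promoter of the adiponectin gene, which mature fat cells express. L1L2-FF mice had no Cre, so a Cre line without floxed alleles is not among the groups, and any effect of Cre itself cannot be told apart from that of the deletion. Cells that never expressed this Cre keep their floxed alleles intact, and the flotation after collagenase digestion can carry some of them along. Recombination is permanent, so cells whose ancestors expressed Cre, among them a subset of fetal precursors, can carry the deletion without expressing adiponectin. Below, L1L2-AKO stands for the libraries that carry this label.

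LATS1 and LATS2 are the kinases at the end of the Hippo cascade: MST kinases, the scaffold SAV1 and the MOB1 adaptors activate them, and they phosphorylate YAP and TAZ, which are then held in the cytoplasm or degraded. YAP and TAZ that reach the nucleus bind TEAD transcription factors, and among the genes that this complex is known to induce are some that act back on the pathway, such as *Lats2* and *Amotl2*. The angiomotin proteins (AMOT, AMOTL1 and AMOTL2) bind YAP and TAZ directly and also activate LATS kinases. PTPN14 is a phosphatase that binds YAP, FRMD6 is a FERM-domain protein of the membrane that acts upstream of LATS, AJUBA is a LIM-domain protein that binds LATS kinases and holds them inactive, and NUAK2 is a kinase of the AMPK-related family that has been described as a YAP target which promotes YAP activity.

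TEAD factors recognise a short motif that is commonly written GGAATG, or CATTCC on the other strand. A search of both strands for these 6 letters in RefSeq promoter windows of the GRCm38.p6 assembly, 250 bases before to 50 bases after each start site, found the motif in 4 of the 8 members with a window, whereas 16.6% of 27025 genes held it in any of their windows and 14.7% of 32851 single windows did. *Nuak2* had no window. The motif was in the windows of *Amotl2*, *Ajuba*, *Lats2* and *Ptpn14*, and not in those of *Lats1*, *Amotl1*, *Frmd6* and *Amot*. A match describes the letters in a window, and no binding was measured here. The 3 windows below belong to the members whose counts were higher in L1L2-AKO, read 5′ to 3′ along the gene, with the motif in capitals. They lie at chr9:102717554-102717853 on the plus strand for *Amotl2*, chr14:54577612-54577911 on the minus strand for *Ajuba* and chr14:57746074-57746373 on the minus strand for *Lats2*.
Amotl2: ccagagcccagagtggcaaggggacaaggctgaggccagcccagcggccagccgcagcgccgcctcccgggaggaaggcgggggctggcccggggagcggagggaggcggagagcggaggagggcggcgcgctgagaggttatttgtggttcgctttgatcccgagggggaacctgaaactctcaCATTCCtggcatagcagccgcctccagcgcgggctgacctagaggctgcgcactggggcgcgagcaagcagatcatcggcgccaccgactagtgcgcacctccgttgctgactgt
Ajuba: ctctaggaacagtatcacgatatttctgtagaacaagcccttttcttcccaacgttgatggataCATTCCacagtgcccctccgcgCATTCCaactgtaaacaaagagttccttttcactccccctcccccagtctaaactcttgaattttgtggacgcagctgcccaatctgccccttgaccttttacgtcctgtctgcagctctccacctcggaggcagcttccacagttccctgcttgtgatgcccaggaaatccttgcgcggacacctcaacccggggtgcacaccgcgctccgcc
Lats2: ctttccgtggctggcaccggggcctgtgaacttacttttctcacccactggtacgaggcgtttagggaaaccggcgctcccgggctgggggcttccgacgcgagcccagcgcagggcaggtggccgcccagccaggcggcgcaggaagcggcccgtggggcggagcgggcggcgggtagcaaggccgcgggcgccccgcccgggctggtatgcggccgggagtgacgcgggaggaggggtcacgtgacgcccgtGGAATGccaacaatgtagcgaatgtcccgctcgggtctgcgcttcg
The *Amotl2* motif starts 65 bases before the start site. *Ajuba* holds 2 copies, which start 186 and 164 bases before it. The *Lats2* motif begins at base 5 of the transcript, and a second annotated *Lats2* window held none.

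Total counts per library ranged from 30548473 to 32107917, so depth was nearly even. Values are given as CPM, read counts scaled to the size of each library (with TMM factors), and changes as log2 fold changes of L1L2-AKO over L1L2-FF with standard errors from edgeR's quasi-likelihood test, whose adjusted p-values cover all 15674 tested genes with a threshold of 0.05. At that threshold 16.5% of tested genes differed, 9.28% being higher in L1L2-AKO and 7.18% lower, and in 36.4% the libraries of the genotypes did not overlap. The adipocyte label was checked against 14 markers of mature fat cells. Their summed level was 24910 to 26340 CPM in L1L2-FF and 14260 to 17780 CPM in L1L2-AKO, with *Fabp4*, a fatty acid carrier, and *Plin4*, a lipid droplet protein, the most abundant. Neither *Fabp4* (log2 fold change -0.30; edgeR adjusted p = 0.389) nor *Plin4* (0.00062; adjusted p = 0.999) passed, and other markers of the list did. Macrophage markers, led by *Mrc1* and *Lyz2*, summed to 271.8 to 531.8 CPM in L1L2-FF and 980.0 to 1091 CPM in L1L2-AKO, and 11 of the 12 were higher. In RNA from a whole fraction, a change in the number of cells of a type and a change in the RNA per cell cannot be told apart.

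Of the 9 members, 5 differed between the genotypes, *Lats2*, *Amotl2* and *Ajuba* being higher in L1L2-AKO and *Lats1* and *Amotl1* lower. *Amot*, *Ptpn14*, *Frmd6* and *Nuak2* did not pass the threshold. The libraries did not overlap for 6 members, the 5 that passed and *Amot*, and 4 of these were higher in L1L2-AKO. Among all tested genes the shares were 9.28% higher, 7.18% lower and 36.4% without overlap. The median log2 fold change over the 9 members was 0.36, beside -0.02 over all tested genes. With a single library left out, 2 to 6 members passed, and *Lats1* and *Ajuba* passed in all 6 such fits.

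**Figure D1:**
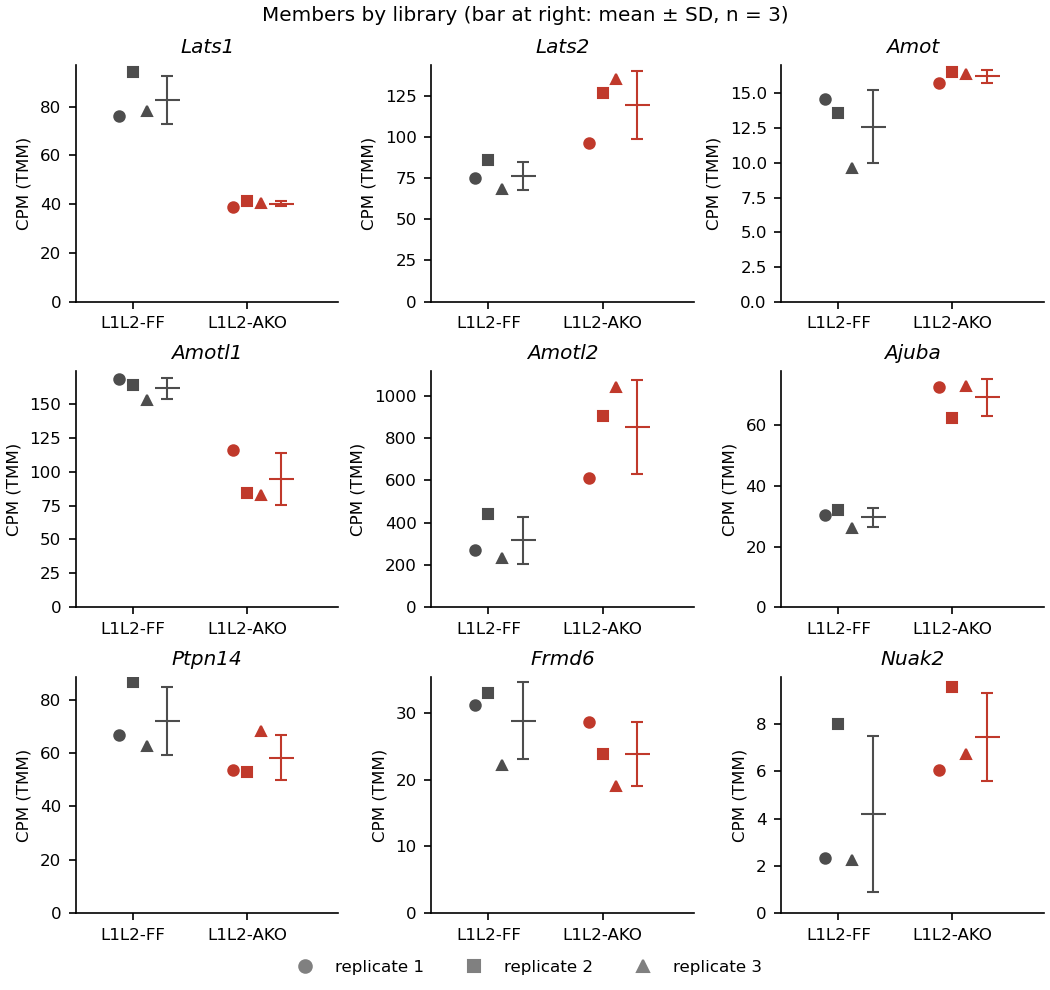
Each panel plots the CPM of 1 member in the 6 libraries on a linear axis from 0, with the marker shape giving the replicate number and the bar at the right of each genotype the mean ± SD of 3 libraries. *Lats1*, *Lats2*, *Amot*, *Amotl1*, *Amotl2* and *Ajuba* separate the genotypes, and for *Nuak2* the L1L2-FF replicate 2 value of 7.98 CPM lies among those of L1L2-AKO.

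*Lats1* lies at chr10:7681214-7716460 on the plus strand of mm10. Its level was 76.1, 94.3 and 78.4 CPM in L1L2-FF replicates 1 to 3 and 38.9, 41.2 and 40.5 CPM in the L1L2-AKO replicates. Every L1L2-AKO library was below every L1L2-FF library, and the L1L2-AKO libraries lay close together. The log2 fold change was -1.04 ± 0.118 (SE, n = 3 libraries per genotype; edgeR adjusted p = 0.00131), which left 48.5% of the L1L2-FF level, with a 95% interval of 40.2 to 58.5%. Without each library in turn the log2 fold change ran from -1.11 to -0.94 and the adjusted p stayed at or below 0.0104. The table counts whole genes, so reads from the floxed exons cannot be set apart from reads of exons that a recombined allele may still transcribe, and reads from cells without Cre are in the same total.

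*Lats2*, at chr14:57689662-57758388 on the minus strand, went the other way from its label as a deleted gene. Its level was 75.0, 85.7 and 68.6 CPM in L1L2-FF and 96.2, 126.5 and 135.4 CPM in the libraries labelled L1L2-AKO. The genotypes did not overlap, and L1L2-AKO replicate 1 was the closest to the L1L2-FF range. This gave a log2 fold change of 0.64 ± 0.156 (edgeR adjusted p = 0.0278), a 1.56-fold rise with a 95% interval of 1.22 to 2.00. This call was lost without L1L2-FF replicate 1 (adjusted p = 0.1), L1L2-FF replicate 3 (0.0651), L1L2-AKO replicate 2 (0.104) or L1L2-AKO replicate 3 (0.0946), while the log2 fold change stayed between 0.55 and 0.78. For *Lats2* the count alone does not show the deletion that the label states. Of the 2 floxed genes only *Lats1* was lower in these counts, and the genotype of each library is taken from its label.

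Part of the *Lats2* count may have another address. Of the 50-base stretches of its transcripts, 41.2% also occur in *Gm49361*, a protein-coding gene on the same strand that has no row in the table. It shares 2955 exonic bases with *Lats2*. How reads of these stretches were assigned is not given in the sources used here. *Gm49361* was taken to be a readthrough gene that joins *Lats2* to its neighbour *Xpo4*, and this was not checked here. *Xpo4*, a nuclear transport receptor gene, was at 11.3, 17.1 and 12.9 CPM in L1L2-FF and 20.3, 13.9 and 16.8 CPM in L1L2-AKO, with overlapping genotypes and a log2 fold change of 0.31 ± 0.205 (edgeR adjusted p = 0.364). *Lats1* shared 0.027% of its stretches with another gene.

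Per kilobase of annotated exon, so that genes of different length can be compared, *Lats1* and *Lats2* were at like levels in L1L2-FF. This likeness rests on the union of all annotated exons, 7297 bases for *Lats1* and 6971 for *Lats2*. Their longest transcripts have 7209 and 5191 bases, and by these *Lats2* would be above *Lats1* in every L1L2-FF library. The shares and sums below use the exon union. *Lats2* made up 50.8, 48.8 and 47.8% of the sum of both in the L1L2-FF libraries and 72.1, 76.3 and 77.8% in the L1L2-AKO libraries. Its mean share was 49.1% ± 1.53 (SD, n = 3) against 75.4% ± 2.94, a difference of 26.3 percentage points (two-sided exact permutation p = 0.1, the smallest that 3 against 3 libraries allow). These shares come from within a library and do not depend on its scaling. The summed LATS level per kilobase was 21.2, 25.2 and 20.6 CPM per kb in L1L2-FF and 19.1, 23.8 and 25.0 CPM per kb in L1L2-AKO. The sums overlapped, with means of 22.3 ± 2.52 and 22.6 ± 3.09 CPM per kb (exact permutation p = 1.0).

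The angiomotin family moved in unequal ways. *Amotl2*, at chr9:102716672-102733418 on the plus strand, was the most abundant member in every library, both in CPM and per kilobase. It stood at 272.4, 442.8 and 235.5 CPM in L1L2-FF and rose to 609.7, 905.8 and 1042 CPM in L1L2-AKO. Even the lowest L1L2-AKO library was above the highest of L1L2-FF, which was replicate 2. Its log2 fold change was 1.43 ± 0.287 (edgeR adjusted p = 0.0134), or 2.69-fold with a 95% interval of 1.70 to 4.25. Omission of L1L2-FF replicate 1 (adjusted p = 0.0643) or of L1L2-AKO replicate 2 (0.0506) ended the call, and over all 6 omissions the log2 fold change was 1.25 to 1.75.

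*Amotl1*, at chr9:14541966-14645056 on the minus strand and 88.1 Mb from *Amotl2* on the same chromosome, fell. Its level was 167.9, 163.5 and 152.3 CPM in L1L2-FF and 116.2, 84.0 and 83.0 CPM in L1L2-AKO. The L1L2-FF libraries agreed closely and replicate 1 was the highest of L1L2-AKO. *Amotl1* had a log2 fold change of -0.77 ± 0.153 (edgeR adjusted p = 0.0128), leaving 58.6% of the L1L2-FF level with a 95% interval of 45.9 to 74.8%. It no longer passed without L1L2-FF replicate 1 (adjusted p = 0.0607), L1L2-AKO replicate 2 (0.0644) or L1L2-AKO replicate 3 (0.0583), with log2 fold changes of -0.95 to -0.68 over the 6 omissions.

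*Amot*, the X-linked member at chrX:145446425-145505181 on the minus strand, was the scarcest of the family at 14.6, 13.6 and 9.60 CPM in L1L2-FF and 15.7, 16.6 and 16.4 CPM in L1L2-AKO. The genotypes did not overlap, but the L1L2-FF libraries were spread widely because replicate 3 was low. Its log2 fold change of 0.36 ± 0.177 did not pass the test (edgeR adjusted p = 0.208; 95% interval -0.04 to 0.77), and it did not pass without any library.

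As shares of the family's level per kilobase, *Amotl2* made up 70.2, 79.8 and 69.7% in L1L2-FF and 87.8, 93.3 and 94.2% in L1L2-AKO. The share of *Amotl1* was 27.0, 18.4 and 28.2% in L1L2-FF and 10.5, 5.41 and 4.69% in L1L2-AKO, and that of *Amot* was 2.26% ± 0.502 (SD, n = 3) against 1.36% ± 0.301. None of the 3 shares overlapped between the genotypes (two-sided exact permutation p = 0.1 for each, also 0.1 after Benjamini-Hochberg adjustment over the 3 shares). The family's sum was 61.7, 88.3 and 53.7 CPM per kb in L1L2-FF and 110.4, 154.3 and 175.9 CPM per kb in L1L2-AKO, 2.16-fold higher on average (exact permutation p = 0.1). The *Amot* share was lower in L1L2-AKO while its CPM was not.

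**Figure D2:**
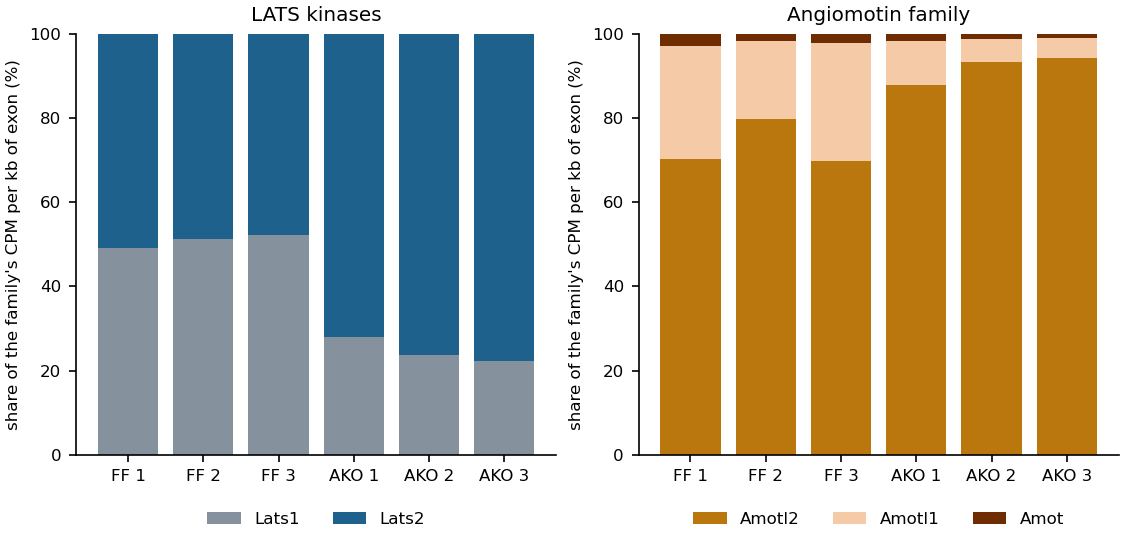
Stacked bars give each gene's share, in percent, of its family's level per kilobase of exon in the 6 libraries (FF for L1L2-FF, AKO for L1L2-AKO), with the LATS kinases at the left and the angiomotin family at the right. *Lats2* takes 47.8 to 50.8% of the LATS level in L1L2-FF and 72.1 to 77.8% in L1L2-AKO, and *Amotl2* takes 69.7 to 79.8% and 87.8 to 94.2% of the angiomotin level.

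*Ajuba*, at chr14:54567472-54577558 on the minus strand and 3.11 Mb from *Lats2*, rose. It was at 30.6, 32.1 and 26.3 CPM in L1L2-FF and 72.5, 62.2 and 73.0 CPM in L1L2-AKO. All 3 L1L2-AKO libraries stood well clear of the L1L2-FF range. On the log2 scale the change was 1.22 ± 0.124 (edgeR adjusted p = 0.000871), 2.34-fold with a 95% interval of 1.92 to 2.85. Over the 6 omissions it ran from 1.14 to 1.298 with the adjusted p at or below 0.00805.

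*Ptpn14* and *Frmd6* showed no difference that passed the test. *Ptpn14*, at chr1:189728268-189876695 on the plus strand, was at 66.8, 86.6 and 62.7 CPM in L1L2-FF and 53.8, 53.0 and 68.1 CPM in L1L2-AKO. The genotypes overlapped because L1L2-AKO replicate 3 lay within the L1L2-FF range. Its log2 fold change was -0.31 ± 0.161 with a 95% interval of -0.68 to 0.06 (edgeR adjusted p = 0.245). A stretch of 177 exonic bases overlaps the antisense gene *Gm26574*, which holds 0.649% of its 50-base stretches. With all libraries the interval ends at a 1.05-fold rise, and over the 6 omissions the log2 fold change ran from -0.42 to -0.15. *Ptpn14* is often listed as a YAP target and its window holds the motif.

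*Frmd6*, at chr12:70825514-70902234 on the plus strand, was at 31.2, 33.0 and 22.2 CPM in L1L2-FF and 28.6, 23.8 and 19.0 CPM in L1L2-AKO. The libraries of the genotypes were interleaved. Its log2 fold change was -0.27 ± 0.199 with a 95% interval of -0.73 to 0.18 (edgeR adjusted p = 0.404). Of its 50-base stretches, 13.1% also occur in *Gm5780*, a gene elsewhere that has no row in the table, which leaves the *Frmd6* count uncertain by the shared reads. Neither *Ptpn14* nor *Frmd6* passed without any library.

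*Nuak2*, at chr1:132316126-132333488 on the plus strand, had the lowest counts of the members and the widest relative spread over L1L2-FF. The counts were 73, 258 and 70 in L1L2-FF and 201, 301 and 193 in L1L2-AKO, or 2.33, 7.98 and 2.26 CPM against 6.06, 9.55 and 6.74 CPM. L1L2-FF replicate 2 was above L1L2-AKO replicates 1 and 3, and the other 2 L1L2-FF libraries were below all of L1L2-AKO. Counting error at the lowest count is 12.0% of the value, whereas the coefficient of variation over L1L2-FF was 78.4%. The log2 fold change was 0.83 ± 0.485 with a 95% interval of -0.29 to 1.94 (edgeR adjusted p = 0.297). Without L1L2-FF replicate 2 it was 1.70 and passed (adjusted p = 0.00553), and it did not pass without any other library.

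**Figure D3:**
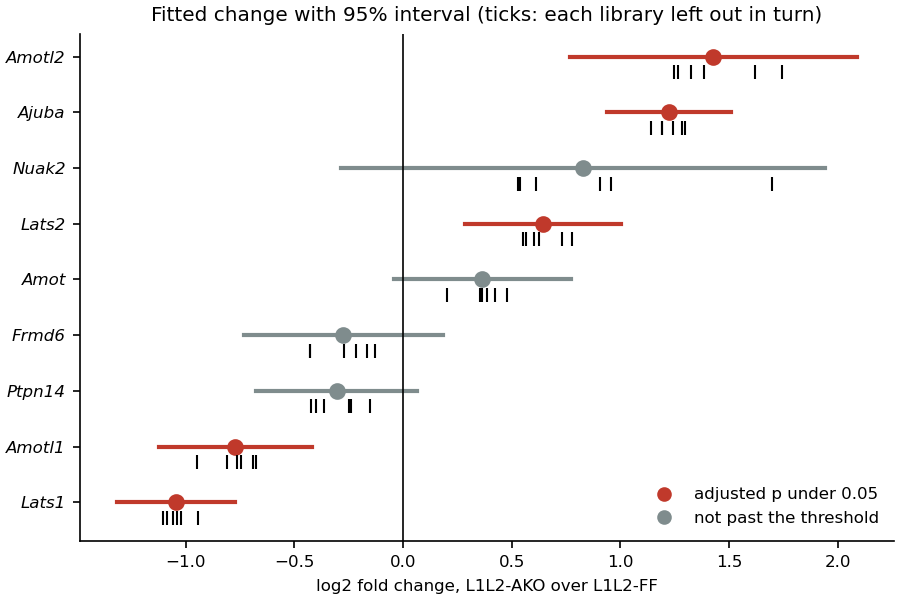
The log2 fold change of each member (horizontal axis, L1L2-AKO over L1L2-FF) is drawn with its 95% interval, in red where the adjusted p was under 0.05, and the ticks below each interval are the values with each of the 6 libraries left out. The ticks of *Lats1* (-1.11 to -0.94) and *Ajuba* (1.14 to 1.298) stay close together, and those of *Nuak2* run from 0.53 to 1.70.

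L1L2-FF replicate 2 was the highest L1L2-FF library for 7 of the 9 members, and L1L2-FF replicate 3 the lowest for 8 of them. Over all tested genes, replicate 2 was the highest L1L2-FF library for 40.0% and replicate 3 the lowest for 38.5%. In the lists of pathway genes described below, replicate 2 was the highest for 16 of 27 core and upstream genes, 5 of 10 effectors, 7 of 18 other YAP targets, 8 of 12 paralogs, and 6 of 12 ligases and tankyrases. The 5 effectors include *Vgll1* only by a tie, since it had 0 counts in every library. These list counts also hold the genes that were not tested, whereas the 40.0% covers tested genes only. The summed macrophage markers were 362.5, 531.8 and 271.8 CPM in L1L2-FF replicates 1 to 3, and the summed progenitor and fibroblast markers were 5705, 6815 and 4203 CPM. Both lists have their highest L1L2-FF value in replicate 2 and their lowest in replicate 3. Mural markers had the same order (1963, 1975 and 1549 CPM). Schwann cell markers were at 499.3, 1299 and 811.7 CPM, and endothelial markers at 2805, 2579 and 2106 CPM. Adipocyte markers (26340, 24910 and 25020 CPM) and skeletal muscle markers (89.7, 71.8 and 117.2 CPM) were lowest in replicate 2. Mesothelial and epithelial markers were at 4.44, 5.57 and 6.45 CPM. The part of any of these lists in the spread of the members was not tested.

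The order of the members by level per kilobase differed between the genotypes. In L1L2-FF *Amotl2* came first at 50.4 ± 17.6 CPM per kb (SD, n = 3), followed by *Amotl1* at 16.0, *Lats1* at 11.4, *Lats2* at 11.0, *Ajuba* at 8.13, *Ptpn14* at 5.37, *Frmd6* at 4.51, *Amot* at 1.50 and *Nuak2* at 1.07. The ranges of *Lats1* and *Lats2*, of *Ptpn14* and *Frmd6*, and of *Amot* and *Nuak2* overlapped, and the other neighbours were apart in all 3 libraries. In L1L2-AKO *Amotl2* came first at 135.5 ± 35.1 CPM per kb, then *Ajuba* at 19.0, *Lats2* at 17.1, *Amotl1* at 9.38, *Lats1* at 5.51, *Ptpn14* at 4.35, *Frmd6* at 3.72, *Amot* at 1.93 and *Nuak2* at 1.90. *Ajuba* and *Lats2* overlapped there, as did *Ptpn14* with *Frmd6* and *Amot* with *Nuak2*. By exon union length, *Ajuba* thus went from place 5 to place 2 and *Lats1* from place 3 to place 5. The lowest 4 places were filled by the same genes in the same order. These places depend on the length used. The exon union and the longest transcript measure 6971 and 5191 bases for *Lats2*, 7297 and 7209 for *Lats1*, and 3646 and 3397 for *Ajuba*. By the longest transcripts *Lats2* would come before *Lats1* in L1L2-FF. In L1L2-AKO it would come before *Ajuba*, and *Nuak2* before *Amot*.

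**Figure D4:**
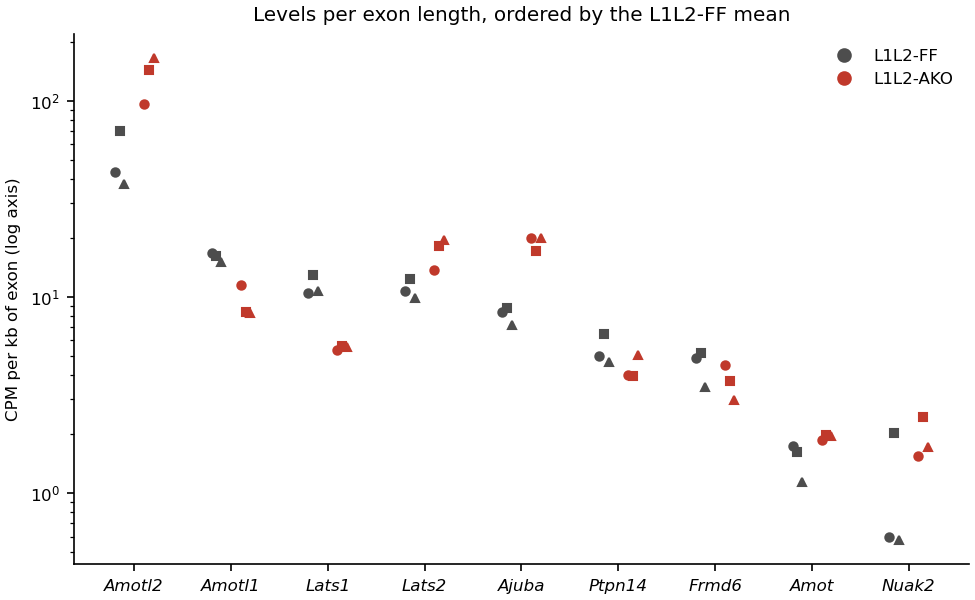
The level of each member in CPM per kilobase of exon is plotted on a log axis for the 3 libraries of each genotype, with the genes ordered by their L1L2-FF mean. *Amotl2* leads in both genotypes, from 37.5 to 70.4 CPM per kb in L1L2-FF and from 96.9 to 165.7 CPM per kb in L1L2-AKO.

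Markers of cells other than fat cells were compared because the floated fraction can hold them. No marker of any list was at 0 in all libraries. Of 14 adipocyte markers 7 were lower in L1L2-AKO and none was higher. None of 10 endothelial markers passed, with sums of 2106 to 2805 CPM in L1L2-FF and 1259 to 2732 CPM in L1L2-AKO. Among 8 mural markers 1 was higher and 2 were lower, and the sums were 1549 to 1975 CPM and 1530 to 1681 CPM. Progenitor and fibroblast markers, of which 1 of 10 was lower, summed to 4203 to 6815 CPM and 4802 to 5355 CPM. Schwann cell markers were lower for 4 of 8, with sums of 499.3 to 1299 CPM and 162.3 to 411.4 CPM. Skeletal muscle markers summed to 71.8 to 117.2 CPM and 40.8 to 64.9 CPM, and none of the 5 tested passed. Mesothelial and epithelial markers summed to 4.44 to 6.45 CPM and 4.40 to 6.49 CPM, which is near the floor, and 2 of the 3 tested were higher. Of these 2, 1 had 0 counts in every L1L2-FF library and passed the filter through L1L2-AKO alone. The markers of this list that were not tested had few counts and leaned in either direction, so the 2 calls do not describe the list. The part that the shifts in adipocyte, macrophage and Schwann cell markers have in the changes of *Lats1*, *Lats2*, *Amotl1*, *Amotl2* and *Ajuba* was not tested.

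The rest of the pathway was described in 5 lists of genes that are not members. Over the 79 genes of these lists 75 were tested, 23 were higher in L1L2-AKO and 2 were lower. The 25 calls fell to 15 without L1L2-FF replicate 1, to 15 without L1L2-AKO replicate 2 and to 16 without L1L2-AKO replicate 3. Beside the 9.28% of all tested genes that were higher, the share was 29.6% of the core and upstream genes, 37.5% of the effectors, 52.9% of the other YAP targets, 18.2% of the paralogs and 8.33% of the ligases and tankyrases. Beside the 7.18% that were lower, it was 5.88% of the other YAP targets, 9.09% of the paralogs and 0% of each remaining list. The lists were chosen with earlier results of these data known, so these shares are a description only. A gene can pass the filter on low counts through 1 genotype alone, as *Ankrd1* did among the other YAP targets.

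Among the 27 core and upstream genes 8 were higher and none lower, with a median log2 fold change of 0.34. *Wwc1*, whose product KIBRA helps to activate LATS kinases, was at 2.11, 5.75 and 3.84 CPM in L1L2-FF and 45.3, 67.1 and 75.8 CPM in L1L2-AKO. Its change was larger than that of any member (log2 fold change 4.00 ± 0.361; edgeR adjusted p = 0.000571), and it passed in all 6 omissions. Its paralog *Wwc2* rose by 0.64 on the log2 scale (adjusted p = 0.0144), *Rassf5*, the gene of a protein that binds MST kinases, by 1.15 (0.03), and *Map4k3*, a kinase gene, by 0.70 (0.0468). *Wwc2* lost its call without L1L2-FF replicate 1 (adjusted p = 0.0702), and *Rassf5* and *Map4k3* lost theirs without L1L2-FF replicates 1 or 3 or L1L2-AKO replicates 2 or 3, with adjusted p-values up to 0.108 and 0.14. *Map4k3* also lost its call with the replicate number as a block (adjusted p = 0.0616), with upper-quartile factors (0.0555) and with limma-voom (0.0519). The most abundant genes of the list, *Map4k4* (log2 fold change 0.07; adjusted p = 0.778) and the LATS adaptor gene *Mob1a* (0.36; adjusted p = 0.0506), did not pass, although *Mob1a* passed with DESeq2 (adjusted p = 0.0104), RLE factors (0.0474), limma-voom (0.048) and a minimum of 10 counts in all libraries (0.048). Called genes of the list went from 8 to 3 without L1L2-FF replicate 1 or L1L2-AKO replicate 2, to 4 without L1L2-AKO replicate 3 and to 5 without L1L2-FF replicate 3.

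Of the 10 effector genes 8 were tested, 3 were higher and none lower. *Vgll3*, a TEAD cofactor gene, rose from 2.11, 4.86 and 3.06 CPM to 55.7, 82.7 and 107.8 CPM (log2 fold change 4.62 ± 0.36; edgeR adjusted p = 0.000389). *Tead1* was at 91.5, 115.6 and 94.9 CPM in L1L2-FF and 206.5, 199.2 and 271.1 CPM in L1L2-AKO (log2 fold change 1.17 ± 0.162; adjusted p = 0.00292). *Tead3* rose by 0.97 on the log2 scale (adjusted p = 0.0242), but not without L1L2-FF replicates 1 or 3 or L1L2-AKO replicates 2 or 3, where the adjusted p reached 0.0943. *Wwtr1*, the gene of TAZ and the most abundant of the list, had a log2 fold change of -0.37 (adjusted p = 0.0762), which passed without L1L2-FF replicate 3 (adjusted p = 0.0394) and with DESeq2 (0.0413).

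The 18 other YAP targets are genes often used to read YAP and TAZ activity, without *Amotl2*, *Lats2*, *Ptpn14* and *Nuak2*, which such lists also hold. Of the 17 tested, 9 were higher, 1 was lower and 7 did not pass, with a median log2 fold change of 1.31. *Igfbp3*, a growth factor binding protein gene, rose from 25.0, 43.4 and 26.8 CPM to 172.6, 619.7 and 619.2 CPM (log2 fold change 3.89 ± 0.502; edgeR adjusted p = 0.0022). *Crim1*, which codes for a membrane protein, rose by 1.72 on the log2 scale (adjusted p = 0.005) and *Myof*, the gene of the membrane repair protein myoferlin, by 1.65 (0.000617). *Ankrd1*, a muscle ankyrin repeat gene and a common YAP readout, had 1, 0 and 1 counts in L1L2-FF and 24, 42 and 23 in L1L2-AKO, a ratio of summed levels of 45.2 with an exact 95% counting interval of 12.1 to 378.6. It passed the filter on low counts through L1L2-AKO alone. *Foxf2*, named after its value was seen, was not tested. That gene had 7, 0 and 2 counts in L1L2-FF and 0, 1 and 0 in L1L2-AKO. *Nt5e*, which codes for the ecto-nucleotidase CD73, was the 1 gene that was lower (log2 fold change -1.36; adjusted p = 0.00865) and was picked for naming after its value was seen. *Ccn1*, an abundant matricellular protein gene, was at 541.6, 534.6 and 386.5 CPM in L1L2-FF and 406.6, 849.7 and 941.8 CPM in L1L2-AKO, where replicate 1 lay within the L1L2-FF range (log2 fold change 0.59; adjusted p = 0.239), and it passed without that library (log2 fold change 0.88; adjusted p = 0.028). *Ccdc80*, a secreted protein gene, gave 0.17 (adjusted p = 0.709). The 4 members that belong to such lists thus divided into *Lats2* and *Amotl2*, which passed, and *Ptpn14* and *Nuak2*, which did not.

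Close relatives of the members were tested as a list of 12 genes, 11 of which passed the filter, with 2 higher, 1 lower and 8 not past the threshold. *Wtip*, an AJUBA relative, was at 14.6, 16.7 and 15.0 CPM in L1L2-FF and 30.7, 34.3 and 38.5 CPM in L1L2-AKO. Its log2 fold change of 1.16 ± 0.131 (edgeR adjusted p = 0.00133) stood beside the 1.22 of *Ajuba*, and it passed in all 6 omissions. *Limd1*, also an AJUBA relative and named after its value was seen, did not pass (log2 fold change -0.01; adjusted p = 0.951). *Nuak1* was at 24.4, 24.9 and 19.7 CPM in L1L2-FF and 32.8, 63.8 and 71.6 CPM in L1L2-AKO, a log2 fold change of 1.29 (adjusted p = 0.016) that did not pass without L1L2-FF replicate 1, L1L2-AKO replicate 2 or L1L2-AKO replicate 3, where the adjusted p reached 0.0644. *Stk38l*, which codes for NDR2, a kinase related to LATS, was lower (log2 fold change -0.71; adjusted p = 0.0297) but not without L1L2-FF replicate 1 or any L1L2-AKO library, with an adjusted p of up to 0.116. The most abundant of the list, *Sik2* (-0.18; adjusted p = 0.622) and *Stk38*, the NDR1 gene (-0.17; adjusted p = 0.343), did not pass.

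Of 12 genes for ubiquitin ligases and tankyrases that act on LATS or angiomotin proteins, only *Wwp1* passed, in all 6 omissions as well. WWP1 is a ligase reported to direct LATS1 to degradation. Its gene was at 81.8, 92.3 and 83.3 CPM in L1L2-FF and 226.5, 249.6 and 324.0 CPM in L1L2-AKO (log2 fold change 1.64 ± 0.158; edgeR adjusted p = 0.000734). The abundant *Nedd4* (-0.07; adjusted p = 0.798) and *Tnks2* (-0.08; adjusted p = 0.691) did not pass, and the median over the list was -0.04.

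**Figure D5:**
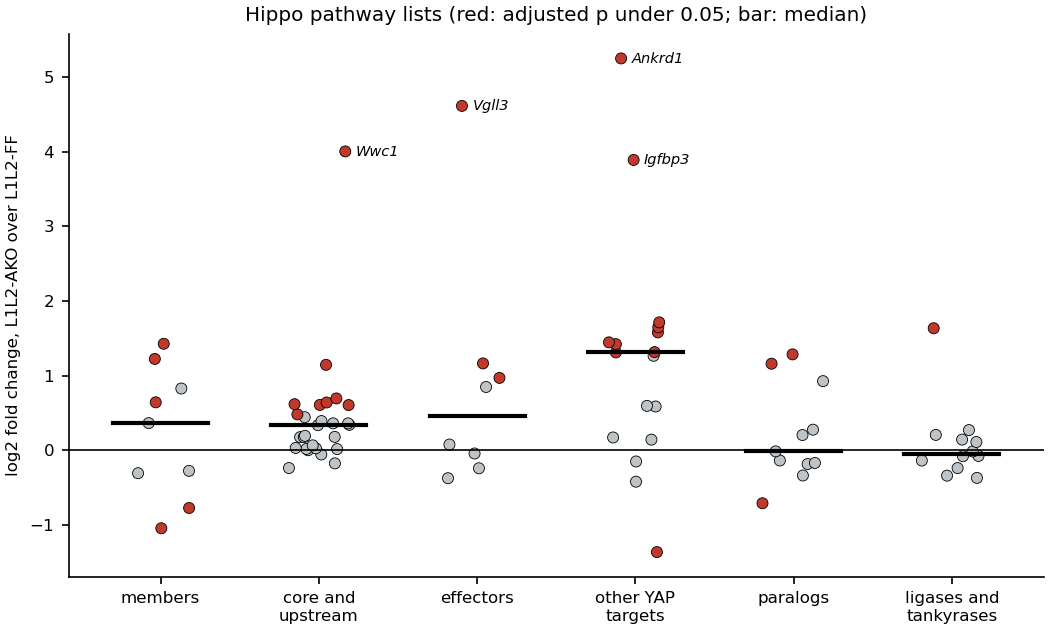
Each point is the log2 fold change (L1L2-AKO over L1L2-FF) of 1 tested gene, in columns for the 9 members and the 5 other lists, red where the adjusted p was under 0.05, with a bar at the median. The medians are 0.36 for the members, 0.34 for core and upstream genes, 0.46 for effectors, 1.31 for other YAP targets, -0.01 for paralogs, and -0.04 for ligases and tankyrases.

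Genes with the most similar pattern to each LATS kinase were sought among 9956 genes with a mean log2 CPM of at least 3. Over the 6 libraries *Lats1* was closest to *Zbtb7a* (Pearson r = 0.998), a zinc finger repressor gene, *Zkscan3* (0.996), another zinc finger gene, and *Pdk2* (0.995), the gene of a pyruvate dehydrogenase kinase. Of these, *Pdk2* fell by a like amount (log2 fold change -1.09; edgeR adjusted p = 0.00227), whereas *Zbtb7a* and *Zkscan3* had log2 fold changes of -0.24 and -0.33 that did not pass, apart from *Zkscan3* with upper-quartile factors (adjusted p = 0.0405), DESeq2 (0.0485) or a minimum of 10 counts in all libraries (0.0491). *Lats2* was closest to *Bicc1* (0.998), an RNA-binding protein gene, *Hsd11b1* (0.998), which codes for an enzyme that reactivates glucocorticoids, and *Heg1* (0.997), a membrane receptor gene. They rose by 1.59, 2.02 and 1.52 on the log2 scale, and *Hsd11b1* lost its call without L1L2-FF replicates 1 or 3 or L1L2-AKO replicates 2 or 3. These correlations share the 6 libraries and the step between genotypes, and are a description only.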

How the data were processed

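Counts per gene symbol were analysed in 6 libraries of floated adipocytes, grouped by genotype and replicate number from the labels. The deposited values are raw counts: the authors read the libraries from both ends, aligned the reads to mm10 with HISAT2 2.1.0 and processed them with SAMtools and StringTie 1.3.5. The program that counted reads, its annotation and its strand setting are not given in the sources used here, so reads of overlapping or near-identical genes may have been split or dropped. The paper counts the pools as biological replicates. Total counts were 30548473 to 32107917 per library, and counting intervals cover counting error only.

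Differences were tested with edgeR 4.0.16 in R 4.3.3 (filterByExpr with a minimum count of 10 and a minimum total of 15, TMM, quasi-likelihood test, two-sided, Benjamini-Hochberg adjustment over 15674 genes, threshold 0.05). The standard error is the absolute log2 fold change over the square root of F, and intervals cover 95%. Shares within a family used an exact permutation test in scipy 1.17.1. Tables and plots were made with pandas 2.3.3 and matplotlib 3.10.9. The script was checked on simulated counts. Exon lengths, positions and shared stretches came from GENCODE M21, in which 36961 symbols matched directly, 3 by a synonym and 420 not at all. The alternatives were RLE factors, library size alone, upper-quartile factors, DESeq2 1.42.0, limma-voom (limma 3.58.1), robust dispersion, no filter, a minimum of 10 counts in all libraries, a replicate block, each library left out, stricter thresholds, and other exon lengths. The 9 members, the 5 pathway lists (written from general knowledge) and the 8 marker lists were chosen with earlier results of these data known. The text names all members, up to 4 genes per pathway list with the largest change past the threshold, the 2 most abundant genes of each, the 3 genes most like each LATS gene, and of the 2 most abundant markers per cell type, which the same rule also drew, only those of adipocytes and macrophages. Columns of other samples were not present, and every library was used.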

Additional observations from a re-analysis of the deposited data

How the results depend on the processing

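The 5 members that passed and the 4 that did not stayed on their side of the threshold under all 9 alternatives to normalization, test, filter and block. The replicate block gave 5 members and 2514 genes in all, against 2580 without it, and among the named genes it ended the call of *Map4k3* (adjusted p = 0.0616) and changed no other. Same-numbered libraries correlated at 0.188, 0.255 and -0.054 in their deviations from the genotype means, so the numbers were not taken to pair the samples, and not every library correlated best with its own number. With a single library left out, the members called ran from 2 to 6 (5 with all), those higher from 1 to 4 (3), those lower from 1 to 2 (2), the pathway list genes from 15 to 27 (25) and all genes from 1281 to 2845. The low values came without L1L2-FF replicate 1 (2 members, 1290 genes), L1L2-AKO replicate 2 (2 members, 1281 genes) and L1L2-AKO replicate 3 (3 members, 1374 genes). These fits have fewer libraries, and whether anything else lowered the counts was not tested. A further threshold of 2-fold left 3 members, 1 of them lower, and an adjusted p under 0.01 left 2, 1 higher and 1 lower. DESeq2 called 13 core and upstream genes in place of 8 and 3370 genes in all. Without a length correction the shares of *Amotl1* and *Amotl2* differed by -23.4 and 24.3 percentage points, in place of -17.7 and 18.6, since the exon lengths of the family differ. No member changed direction in any setting. Among other named genes that had not passed, the log2 fold change turned for *Ccdc80* without L1L2-AKO replicate 3 (-0.11; 0.41 at most over the omissions), for *Sik2* without L1L2-AKO replicate 2 (0.00087; -0.38 at least), and for *Plin4*, which was at 0.00062, to -0.0405 with library size alone, -0.0414 with upper-quartile factors, -0.00116 with a minimum of 10 counts in all libraries and -0.18 to 0.21 with a library left out. No value was tested for outliers, since the groups hold 3 libraries.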
